A study of Homo sapiens with 16 samples.

Results

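The alpha-globin genes are driven in red cells by enhancers that lie in the neighbouring gene NPRL3, and 14 short DNA inserts of the reporter libraries carried the name of such an enhancer. They were chosen by name alone, as every short insert named for an NPRL3 enhancer, and they make up 14 of 499 short inserts. Of these, 5 were unmutated control inserts (Ctrl): enhancers 1 and 3 each on the pos and on the neg strand, and enhancer 2 on the pos strand. The other 9 each had the motif of 1 transcription factor mutated. Enhancer 1 had a Stat3 mutant on the neg strand, enhancer 2 had Gata1 and Meis1 mutants, and enhancer 3 had CTCF, Gata1 and p63 mutants on each strand. Each insert was present with 4 barcodes, so the 14 inserts are 56 barcoded constructs.

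The inserts were measured in wild-type K562, a human erythroleukaemia cell line, by TSS-MPRA, which tests many barcoded reporter inserts at once and sequences their capped RNA from its first base. An RNA read thus names its insert through the barcode and marks the position, from 1 to 200 along the insert, at which transcription started. The samples used here are the EpiShort and the LentiShort libraries, names that stand for short inserts in an episomal and in a lentiviral vector, with 2 RNA and 2 DNA samples for each vector. The DNA samples count how much of each barcoded insert was present. No label names separate cultures for the replicates, and all groups share the cell line, so the vector and the preparation of its libraries cannot be told apart.

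The alpha-globin cluster holds HBZ, which codes for the embryonic zeta-globin, and HBA2 and HBA1, which code for the alpha-globin of fetal and adult red cells. NPRL3, a housekeeping gene of the nutrient-sensing pathway, lies beside it, and its introns hold enhancers that are bound in erythroid cells by GATA1, the zinc finger factor that directs red cell development. Active enhancers are themselves transcribed from both strands into short-lived RNA, which is why an enhancer insert can initiate transcription in a reporter. In hg38 with the GENCODE annotation, NPRL3 spans chromosome 16 from 84271 to 138677 on the minus strand, HBZ 142728 to 154503, HBA2 172876 to 173710 and HBA1 176680 to 177522, all 3 on the plus strand. The sequence of each insert, its place within NPRL3 and the bases that were changed were not used here.

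Depth differed between the libraries. The RNA libraries held 21571370 and 19020540 reads in EpiShort and 11140433 and 11741702 in LentiShort. The DNA libraries held 15286382 and 1698930 reads in EpiShort, so that its second DNA library was shallow, and 8614823 and 9989471 in LentiShort. For the 14 inserts, an insert's RNA reads in a library ran from 92 to 14754 and its DNA reads from 756 to 48401, summed over its barcodes. The level of an insert is given as RNA per DNA, its share of the library's RNA reads over its share of the library's DNA reads, so that 1 means as much RNA as DNA. On the log2 scale it is the mean ± SD over 4 barcodes of the log ratio, with 1 read added to each count and both replicates averaged. The p-values below come from limma fits to every mutant and Ctrl pair of the table, and they measure the spread between barcodes of the same libraries.

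Among the intact enhancers, enhancer 2 gave more RNA per DNA than enhancers 1 and 3 in all 4 libraries. Its Ctrl insert gave an RNA per DNA of 0.279 and 0.272 in the EpiShort libraries and of 1.53 and 1.44 in the LentiShort libraries, or -1.81 ± 0.32 and 0.61 ± 0.36 on the log2 scale. It ranked 253 of 487 inserts in EpiShort and 119 of 495 in LentiShort, where the median insert stood at -1.70 and -0.67. The median Ctrl insert of the table stood at -2.01 in EpiShort (26 inserts) and at -0.02 in LentiShort (27 inserts). Enhancer 2 on the pos strand was thus near the middle of the episomal library and in the upper part of the lentiviral one.

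Enhancer 3 was weaker, and its pos strand gave more RNA than its neg strand. On the pos strand RNA per DNA was 0.131 and 0.123 in EpiShort (-3.14 ± 1.01, rank 349) and 0.0992 and 0.109 in LentiShort (-3.37 ± 0.76, rank 443). On the neg strand it was 0.0265 and 0.0250 in EpiShort (-5.29 ± 0.41, rank 455) and 0.0175 and 0.0210 in LentiShort (-5.61 ± 0.97, rank 482). The 2 replicates of a vector lay close together for both strands, while the barcodes of the pos insert in EpiShort ran from -4.49 to -2.04.

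Enhancer 1 was the lowest of the 3 in EpiShort. There the neg strand stood at 0.0117 and 0.0107 RNA per DNA (-6.70 ± 0.90, rank 483), from 104 and 94 RNA reads, and the pos strand at 0.0121 and 0.0147 (-6.23 ± 0.57, rank 475). In LentiShort the neg strand stood at 0.0207 and 0.0132 (-5.94 ± 0.23, rank 487), and the pos strand at 0.0708 and 0.0641 (-3.73 ± 0.79, rank 453). Enhancer 1 was thus close to the bottom of the table in EpiShort on both strands, and in LentiShort on the neg strand. In LentiShort its pos strand stood above the neg strand of enhancer 3 in both libraries, and its neg strand above that insert in the first library and below it in the second.

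The comparison of strands set the pos insert of an element against its neg insert. Whether the 2 inserts hold the same bases in opposite directions was not checked. In each vector the table held 6 elements with a Ctrl insert on both strands, and 50% of them in EpiShort and 83.3% in LentiShort differed between strands at an adjusted p under 0.05. The pos strand was the higher one in 50% of the elements in EpiShort and in 66.7% in LentiShort, the neg strand in 0% and 16.7%. Of the 2 NPRL3 enhancers with both strands, enhancer 3 was higher on the pos strand by 2.16 ± 0.46 in EpiShort (log2 ± SE, adjusted p = 0.00343) and by 2.25 ± 0.52 in LentiShort (adjusted p = 0.00207), and all 4 pos barcodes lay above all 4 neg barcodes in both vectors. Enhancer 1 was higher on the pos strand in LentiShort by 2.21 ± 0.37 (adjusted p = 0.000356), with no overlap of the barcodes. In EpiShort its strands differed by 0.47 ± 0.45 (adjusted p = 0.491), with a 95% interval from -0.55 to 1.49. Counted by RNA reads alone, without the DNA, the strands of enhancer 1 differed in EpiShort too, by 2.72 (adjusted p = 0.00180). The pos insert had 31704 and 3686 DNA reads there and the neg insert 6314 and 783.

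The intact enhancers also differed in how sharply they initiated. In enhancer 2 a single position, 128, took 43.6% of starts in EpiShort (barcodes 40.2% to 48.9%) and 43.4% in LentiShort (41.6% to 45.3%). In enhancer 3 on the pos strand position 126 took 44.3% (33.6% to 52.1%) and 43.0% (35.1% to 47.8%), and position 128 took 14.0% and 21.6%. Its barcode 2 in EpiShort had 44.7% of starts before position 101 and a mean position of 102, where the other barcodes averaged 122 to 129. On the neg strand starts were divided between the same numbered positions of the insert, 126 with 21.7% and 20.0% and 128 with 16.3% and 25.3%. Enhancer 1 had no such dominant position in the mean of its barcodes, and its barcodes differed widely. Its pos strand had 8.40% of starts at position 150 (barcodes 2.96% to 14.3%) and 8.94% at position 153 (3.70% to 12.5%) in EpiShort. In LentiShort the pos strand had 16.0% at 150 (11.6% to 24.0%), 10.9% at 83 (8.90% to 13.9%) and 10.3% at 106 (0.50% to 21.7%). The neg strand had 16.5% at position 121 in EpiShort (5.88% to 32.1%), over 3 barcodes with enough reads. In LentiShort it had 17.8% at 47 (0% to 30.8%) and 16.0% at 121 (7.38% to 24.6%).

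Mutation of a motif asks whether that motif contributes to the transcription the enhancer starts. At an adjusted p under 0.05, 4 of the 9 NPRL3 mutants differed from their Ctrl in EpiShort, where the test called 53.1% of 49 pairs in the whole table, and 5 of 9 in LentiShort, where it called 60.8% of 51 pairs. In EpiShort 3 mutants fell, against 44.9% of all pairs, and 1 rose, against 8.16%. In LentiShort 2 fell, against 41.2%, and 3 rose, against 19.6%. The median effect of the 9 mutants was -0.08 in EpiShort and 0.14 in LentiShort, and that of all pairs -0.36 and -0.09. Every mutant that fell was a Gata1 mutant, and those that rose were p63 and CTCF mutants of enhancer 3. Mutants of one insert share its Ctrl barcodes, so their effects are not independent of each other.

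GATA1 binds the GATA sequence in globin regulatory elements. Its mutation lowered enhancer 2 in both vectors. RNA per DNA of the mutant was 0.0741 and 0.0759 in the EpiShort libraries and 0.425 and 0.465 in the LentiShort libraries, against the Ctrl values given above. The mutant fell by 2.11 ± 0.25 on the log2 scale in EpiShort (adjusted p = 0.000135) and by 1.74 ± 0.25 in LentiShort (adjusted p = 0.000278). All 4 mutant barcodes lay below all 4 Ctrl barcodes in both vectors, at -4.48 to -3.63 against -2.21 to -1.54 in EpiShort and at -1.58 to -0.83 against 0.12 to 0.97 in LentiShort. The difference between the vectors in this effect was 0.36 ± 0.33 (adjusted p = 0.410), with a 95% interval from -0.39 to 1.12.

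The same mutation moved the starts of enhancer 2 to lower positions. The share of starts at position 128 was 24.7% in the EpiShort mutant (barcodes 7.11% to 36.6%) and 17.6% in the LentiShort mutant (15.1% to 24.0%). Position 122 took 17.6% and 23.3% in the mutant, against 8.51% and 7.20% in the Ctrl insert, and position 120 took 13.4% and 11.5%, against 2.81% and 1.14%. The mean start position moved by -5.60 ± 0.79 bp in EpiShort (adjusted p = 0.00104) and by -12.5 ± 1.20 bp in LentiShort (adjusted p = 5.36e-05). The lowest and highest barcodes of the mutant averaged 121 and 124 in EpiShort and 114 and 120 in LentiShort, below the Ctrl barcodes at 127 to 129 and 128 to 131.

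The output of single positions shows which starts were lost. It is given here as the RNA reads that start at a position per DNA read of the insert, each as a share of its library, times 1000, and is a description of the 2 libraries with no test. At position 128 it was 126 and 118 in the EpiShort Ctrl libraries and 23.3 and 20.4 in the mutant, and 651 and 634 against 82.3 and 73.1 in LentiShort. At position 122 it was 22.8 and 24.3 in the Ctrl insert and 10.2 and 12.9 in the mutant in EpiShort, and 115 and 97.8 against 96.5 and 113 in LentiShort. The loss was therefore much larger at 128 than at 122, and in LentiShort the libraries of mutant and Ctrl overlapped at 122. At position 120 the output was 8.02 and 6.60 in the Ctrl insert and 8.36 and 8.31 in the mutant in EpiShort, and 10.7 and 22.7 against 49.0 and 57.0 in LentiShort. At position 83 the Ctrl insert had 0.33 and 0.24 and the mutant 2.42 and 3.35 in EpiShort, and 1.36 and 2.15 against 42.1 and 29.6 in LentiShort. Positions 120 and 83 thus stood higher in the mutant than in the Ctrl insert in every library of both vectors, although the insert as a whole fell. At position 120 the difference was small in EpiShort.

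In enhancer 3 the Gata1 mutation lowered the pos strand in both vectors. RNA per DNA of the mutant was 0.0305 and 0.0299 in EpiShort and 0.0311 and 0.0264 in LentiShort. It fell by 1.96 ± 0.48 in EpiShort (adjusted p = 0.00759) and by 1.77 ± 0.37 in LentiShort (adjusted p = 0.00261), and the mutant barcodes, at -5.73 to -4.66 and -5.40 to -4.51, lay below all Ctrl barcodes, at -4.49 to -2.04 and -4.15 to -2.62. Without barcode 3 the EpiShort call was lost (-1.86, adjusted p = 0.0532), and RNA reads alone gave -2.0 (adjusted p = 0.0510). Its pattern of starts stayed close to that of the Ctrl insert: position 126 took 40.5% of starts in EpiShort and 45.9% in LentiShort, and the mean position differed by 4.68 ± 5.63 bp (adjusted p = 0.553) and 0.75 ± 2.65 bp (adjusted p = 0.836). The 95% intervals of these shifts ran from -8.49 to 17.9 bp and from -5.49 to 6.99 bp.

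On the neg strand of enhancer 3 the Gata1 mutant gave 0.0113 and 0.0128 RNA per DNA in EpiShort and 0.0190 and 0.0147 in LentiShort. It fell by 1.12 ± 0.28 in EpiShort (adjusted p = 0.00767), with all 4 mutant barcodes below all 4 Ctrl barcodes. With the replicate number as a block the adjusted p was 0.0542, and RNA reads alone gave -1.25 (adjusted p = 0.118). In LentiShort the difference was -0.37 ± 0.49 (adjusted p = 0.556), the barcodes overlapped, and the 95% interval ran from -1.46 to 0.72. The difference between vectors was 0.76 ± 0.36 (adjusted p = 0.121), and it passed the test without replicate 2 (1.20, adjusted p = 0.0366).

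The mean start of the neg strand moved with the Gata1 mutation in both vectors. The mean start position moved by -13.5 ± 3.17 bp in EpiShort (adjusted p = 0.0117) and by -22.4 ± 6.21 bp in LentiShort (adjusted p = 0.0150). In EpiShort the mutant barcodes averaged 109 to 125 bp, below the Ctrl barcodes at 126 to 130 bp. In LentiShort the mutant barcodes averaged 89.1 to 113 bp and overlapped the Ctrl barcodes at 111 to 127 bp. The distance between whole start profiles, described below, did not pass its test for this mutant in either vector (13.5 bp, adjusted exact p = 0.0549, and 22.4 bp, adjusted exact p = 0.117). In EpiShort its unadjusted exact p was 0.0286, the smallest that the splits of the barcodes allow. Whether it passed there after adjustment depended on the other pairs, so the miss does not show an unchanged profile. Starts at position 126 made up 8.85% in EpiShort and 3.64% in LentiShort. Position 128, a main start of the Ctrl insert, still took the largest share in the mutant. It took 8.86% in EpiShort (barcodes 0% to 18.8%) and 15.6% in LentiShort (7.09% to 36.0%). Position 114 took 7.17% (barcodes 5.36% to 9.42%) and 15.2% (12.2% to 18.6%) of the mutant's starts. In the Ctrl insert it took 0 of 1640 reads in EpiShort, which allows a share of up to 0.183%, and 0 of 1371 in LentiShort, which allows up to 0.219%. The adjoining position 115 took 2.70% and 4.66% in the Ctrl insert, and 4.46% and 0% in the mutant. In LentiShort position 72 took 12.1% of the mutant's starts (barcodes 6.38% to 24.2%), against 2.58% in the Ctrl insert (0% to 6.83%), so the barcodes overlapped there. The Gata1 mutation of enhancer 3 thus went with a start at 114 on the neg strand that the Ctrl insert did not show at this depth.

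The p63 motif is shared by the p53 family of factors, which act in stress responses and in epithelia. Its mutation raised the neg strand of enhancer 3 in both vectors. RNA per DNA of the mutant was 0.0536 and 0.0581 in EpiShort and 0.127 and 0.124 in LentiShort. It rose by 1.45 ± 0.50 in EpiShort (adjusted p = 0.0340) and by 2.62 ± 0.53 in LentiShort (adjusted p = 0.00233). The barcodes did not overlap in LentiShort, at -4.13 to -2.21 against -6.89 to -4.78, and overlapped in EpiShort, at -5.00 to -2.31 against -5.77 to -4.78.

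The EpiShort rise depended on the barcodes and on the DNA counts. Leaving out barcode 1, 2 or 4 of both inserts ended the EpiShort call (1.35, adjusted p = 0.122; 0.93, adjusted p = 0.0681; 1.52, adjusted p = 0.103). The p63 mutant had fewer DNA reads than its Ctrl insert in every library, 6316 and 756 against 23909 and 2671 in EpiShort and 11105 and 13188 against 27645 and 30183 in LentiShort. Its barcode 2 had 208 and 17 DNA reads in EpiShort and was the highest of the 4. By RNA reads alone the difference turned in EpiShort (-1.04, adjusted p = 0.310). In LentiShort the rise was called under each of the 19 settings tried, from 1.33 by RNA reads alone to 3.23. Of the 9 effects, this was the only one that differed between vectors by test, at 1.17 ± 0.41 (adjusted p = 0.0499, LentiShort minus EpiShort), where 40.8% of 49 pairs of the table were called (26.5% of pairs higher in LentiShort, 14.3% lower). With a pseudocount of 5 it missed the threshold (adjusted p = 0.0508).

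The p63 mutant of the neg strand initiated at other positions than the Ctrl insert. Position 136 took 30.6% of its starts in EpiShort (barcodes 13.5% to 45.0%) and 43.2% in LentiShort (36.4% to 47.4%), against 2.30% and 2.01% in the Ctrl insert. Position 138 took 8.70% and 8.78%, where the Ctrl insert had 0 of 1640 and 0 of 1371 reads, and position 146 took 12.3% (barcodes 0% to 33.3%, the highest in barcode 4 with 96 reads) and 10.5% (5.71% to 20.2%), against 2.15% in EpiShort and 0 of 1371 reads in LentiShort. These 3 positions were the mutant's main starts in LentiShort. The Ctrl insert's main positions were nearly empty in the mutant: position 126 took 0.43% and 0.39%, and position 128 took 0.67% and 0.48%. Position 148 took 5.11% and 5.79% of starts in the Ctrl insert and 0 of 970 and 0 of 3750 reads in the mutant, which allows up to 0.309% and 0.0800%.

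Both a gain and a loss underlay that change of pattern. The output at position 136 was 0.65 and 0.74 per 1000 in the Ctrl insert and 19.6 and 21.7 in the mutant in EpiShort, and 0.42 and 0.25 against 51.9 and 59.0 in LentiShort. At position 126 it was 5.13 and 4.92 in the Ctrl insert and 0.00 and 0.59 in the mutant in EpiShort, and 3.92 and 4.09 against 0.00 and 0.71 in LentiShort. The mutant was higher at 136 and lower at 126 in all 4 libraries. The mean position moved by 14.6 ± 3.90 bp in LentiShort (adjusted p = 0.0148) and by 3.17 ± 3.15 bp in EpiShort (adjusted p = 0.474). The EpiShort shift turned to -3.99 bp without replicate 2 and was called without replicate 1 (6.31 bp, adjusted p = 0.0465).

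On the pos strand of enhancer 3 the p63 mutant gave 0.215 and 0.183 RNA per DNA in EpiShort and 0.303 and 0.318 in LentiShort. It rose in LentiShort by 1.68 ± 0.38 (adjusted p = 0.00382), with all 4 mutant barcodes, at -2.19 to -1.10, above the Ctrl barcodes. In EpiShort the difference was 0.72 ± 0.45 (adjusted p = 0.240), with a 95% interval from -0.30 to 1.74 and overlapping barcodes, and without barcode 2 it passed (1.21, adjusted p = 0.0402). The difference between vectors was 0.97 ± 0.51 (adjusted p = 0.154). This mutant too had fewer DNA reads than its Ctrl insert, 8239 and 959 against 43487 and 4683 in EpiShort and 14928 and 17339 against 44343 and 48401 in LentiShort. By RNA reads alone the LentiShort difference was 0.28 (adjusted p = 0.678) and the EpiShort difference -1.53 (adjusted p = 0.130).

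Unlike on the neg strand, position 126 remained the main start of the pos strand p63 mutant, with 53.6% of starts in EpiShort and 43.1% in LentiShort. Position 17 took 1.13% and 5.85% (barcodes 5.32% to 6.93%) in the mutant, against 0.31% and 0.38% in the Ctrl insert. Its output was 17.0 and 18.6 per 1000 in the LentiShort mutant against 0.23 and 0.35 in the Ctrl insert. The mean position moved by 4.73 ± 5.56 bp in EpiShort (adjusted p = 0.553) and by -6.09 ± 2.76 bp in LentiShort (adjusted p = 0.0892, or 0.0499 with -7.54 bp without replicate 2).

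CTCF is a zinc finger factor that organises chromatin loops and insulates domains. Mutation of its motif raised the pos strand of enhancer 3 in LentiShort. RNA per DNA of this mutant was 0.173 and 0.148 in EpiShort and 0.290 and 0.289 in LentiShort. It rose by 1.63 ± 0.35 in LentiShort (adjusted p = 0.00291), where all 4 mutant barcodes, at -2.18 to -1.56, lay above the Ctrl barcodes. In EpiShort the difference was 0.54 ± 0.44 (adjusted p = 0.368), with a 95% interval from -0.46 to 1.54. The difference between vectors, 1.09 ± 0.47, did not pass the test (adjusted p = 0.0982). By RNA reads alone the LentiShort difference was 0.73 (adjusted p = 0.206) and the EpiShort difference -0.24 (adjusted p = 0.843). The mutant had fewer DNA reads than the Ctrl insert, 23953 and 2795 in EpiShort and 22269 and 25022 in LentiShort.

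The starts of the pos strand CTCF mutant gathered at position 126, which took 59.5% in EpiShort (barcodes 54.0% to 65.7%) and 62.4% in LentiShort (60.8% to 64.0%), above each Ctrl barcode. The p63 mutant of that strand overlapped it there in EpiShort (50.2% to 57.2%) and not in LentiShort (36.5% to 49.2%). Position 100 took 4.95% and 4.30% of starts in the Ctrl insert. In the CTCF mutant it took 1 and 0 reads in the EpiShort libraries and 0 and 12 reads in the LentiShort libraries, of 10482 and 16852 reads for both libraries together. In the Gata1 and p63 mutants of that strand it took 6.70% and 3.90% in EpiShort and 4.97% and 3.45% in LentiShort. The next base, position 99, took 2.22% (barcodes 1.71% to 2.58%) and 3.41% (2.88% to 4.32%) in the CTCF mutant, against 0.30% and 0.16% in the Ctrl insert, 0.13% and 0.12% in the Gata1 mutant and 0.44% and 0.21% in the p63 mutant. Of this pair of positions, the CTCF mutant had the larger share at 99 and the other 3 inserts of this strand at 100, in both vectors. The mean position did not show it, with shifts of 8.65 ± 5.62 bp (adjusted p = 0.284) and 0.19 ± 2.79 bp (adjusted p = 0.969). The distance between whole start profiles, described below, was not called for this mutant under any setting tried. Its adjusted exact p ran from 0.0866 to 0.230 in EpiShort and from 0.382 to 0.457 in LentiShort.

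On the neg strand the CTCF mutant gave 0.0214 and 0.0205 RNA per DNA in EpiShort and 0.0387 and 0.0295 in LentiShort. Its level differed from the Ctrl insert by -0.36 ± 0.26 (adjusted p = 0.298) and 0.41 ± 0.54 (adjusted p = 0.556), with 95% intervals from -0.95 to 0.22 and from -0.80 to 1.62. Its starts moved in LentiShort, by -19.3 ± 4.78 bp (adjusted p = 0.0110), and the shift of -7.04 ± 3.10 bp in EpiShort missed the threshold (adjusted p = 0.120). In LentiShort position 65 took 14.7% (barcodes 7.10% to 24.8%), position 97 took 10.2% and position 109 took 6.40%, against 0.61%, 2.74% and 0 of 1371 reads in the Ctrl insert. By library, position 65 took 8.46% and 22.9% in the mutant, and position 97 took 6.32% and 0% in the Ctrl insert. Barcodes overlapped at 97, with 3.31% to 19.1% against 0% to 6.83%. Positions 65 and 97 took 6.24% and 4.09% in the Gata1 mutant of this strand, and 0.31% and 0.55% in the p63 mutant. Starts before position 101 made up 47.9% in the mutant (34.6% to 56.1%) and 21.1% in the Ctrl insert (8.31% to 34.1%). In EpiShort position 65 took 4.52%, against 0.12%, position 97 took 3.35%, against 0.49%, and position 109 took 1.19%, against 0.92%.

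MEIS1, a homeobox factor of blood stem cells and megakaryocytes, has a motif in enhancer 2 whose mutation gave no detectable change. RNA per DNA of the mutant was 0.255 and 0.236 in EpiShort and 1.51 and 1.37 in LentiShort. It differed from the Ctrl insert by -0.08 ± 0.25 (adjusted p = 0.770) and 0.14 ± 0.32 (adjusted p = 0.720), with 95% intervals from -0.64 to 0.49 and from -0.58 to 0.85. Position 128 took 46.1% and 46.2% of its starts, and the mean position differed by 0.28 ± 0.82 bp in EpiShort and -0.00 ± 1.05 bp in LentiShort, with intervals from -1.64 to 2.21 bp and from -2.46 to 2.46 bp.

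STAT3 is a factor activated by cytokine receptors. Its motif was mutated in the neg strand of enhancer 1, whose Ctrl insert was already among the lowest. RNA per DNA of the mutant was 0.0861 and 0.0815 in EpiShort and 0.0173 and 0.0134 in LentiShort. The EpiShort value rested on barcode 1, which gave 1397 and 1300 RNA reads from 2670 and 333 DNA reads (-1.48), while the other barcodes lay between -7.11 and -6.81. With all barcodes the mutant differed by 1.11 ± 1.18 (adjusted p = 0.492), and without that barcode by -0.26 (adjusted p = 0.654), an alternative chosen after seeing the data. edgeR with all barcodes gave 3.05 (adjusted p = 0.0448). That barcode started mainly at position 41 and had 98.8% of its starts before position 101, where the other 2 barcodes with enough reads had mean positions of 99.5 and 116. Starts before position 101 were common in LentiShort without a high level, at 62.3% in the Ctrl insert (barcodes 25.3% to 89.3%) and 73.7% in the mutant (2 barcodes). In LentiShort the mutant differed by -0.03 ± 0.27 (adjusted p = 0.923), with a 95% interval from -0.63 to 0.57, from 92 and 93 RNA reads. By RNA reads alone it was lower there (-1.44, adjusted p = 0.0133), with 4110 and 5887 DNA reads against 10071 and 14582 in the Ctrl insert.

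Compared over both strands of enhancer 3, no mutation was shown to change RNA per DNA differently by strand. This comparison leaves out the start positions, which are described above for each strand and were not tested between strands. The test of the difference between strands, pos minus neg, gave 0.90 ± 0.59 for CTCF, -0.83 ± 0.60 for Gata1 and -0.74 ± 0.64 for p63 in EpiShort (adjusted p from 0.245 to 0.252), and 1.22 ± 0.71, -1.40 ± 0.68 and -0.94 ± 0.72 in LentiShort (adjusted p = 0.172, 0.133 and 0.261). Of the 5 motifs of the table mutated on both strands, the test called 0% in EpiShort and 20% in LentiShort. None of these 3 had an unadjusted p under 0.05 in limma in either vector. The 95% interval of the Gata1 difference in LentiShort ran from -2.83 to 0.02. By RNA reads alone the Gata1 effect differed between strands in LentiShort (-2.27, adjusted p = 0.00805).

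Over all 9 mutants, the mean start position moved in 2 in EpiShort, against 33.3% of 48 pairs of the table, and in 4 in LentiShort, against 61.2% of 49 pairs. Both in EpiShort moved to lower positions, as did 25% of all pairs, while 8.33% moved to higher ones. In LentiShort 3 moved lower, against 46.9%, and 1 higher, against 14.3%. The 2 in EpiShort were the Gata1 mutants of enhancer 2 and of the neg strand of enhancer 3. LentiShort added the CTCF and p63 mutants of that neg strand, and none of the 3 pos strand mutants of enhancer 3 passed in either vector. The whole start profile was compared by the earth mover distance, the mean number of bp by which starts must be moved to turn one profile into the other. It was tested by an exact one-sided test over the splits of the barcodes, 35 splits for 4 against 4 barcodes. The Stat3 pair had fewer barcodes with enough reads, 3 against 3 in EpiShort and 4 against 2 in LentiShort. Its splits were too few for an exact p under 0.05, so this test could not call it. In LentiShort the distance was 12.5 bp for the Gata1 mutant of enhancer 2, and 21.0 bp for the CTCF and 15.9 bp for the p63 mutant of the enhancer 3 neg strand, each at the smallest p the splits allow (exact p = 0.0286, adjusted p = 0.0424). These 3 of 9 stand against 67.3% of 49 pairs, and the p63 call was lost without replicate 2 (15.4 bp, adjusted p = 0.0831). In EpiShort the exact test called 0% of 48 pairs. There 2 of the 9 mutants had an unadjusted exact p of 0.0286, the Gata1 mutants of enhancer 2 (5.64 bp) and of the enhancer 3 neg strand (13.5 bp), with an adjusted p of 0.0549. An exact p of 0.0286 is the smallest the splits allow, so whether these 2 passed depended on the other pairs of the table. Without replicate 2 both passed in EpiShort (5.90 and 12.4 bp), and so did the p63 mutant of the neg strand (9.41 bp, each at an adjusted exact p = 0.0497).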

How the data were processed

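Capped RNA was enriched and sequenced from both ends, per the labels' protocols. The submitters' processing notes name STAR 2.7.9a and the build hg38. How reads became table entries is not given in the sources used here. For each barcoded insert the deposited tables hold the count of RNA reads, the count of DNA reads and the fraction of RNA reads that start at each of 200 positions, per the file headers. The counts are whole numbers with differing totals, so they were taken as raw. Fractions times RNA reads lay within 0.05 of a whole number for 99.83% to 99.88% of nonzero entries and were rounded to reads. Each table stacks blocks of rows without a sample column, and blocks were given to samples by the order of the names that the table itself carries. The 4 blocks that belong to no sample of the series were not used.

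The level was log2 of (RNA + 1) over (DNA + 1), scaled to library totals, as the mean of the replicates. A barcode needed 20 or more DNA reads and an insert 2 or more such barcodes. Pairs in which either insert averaged 10 or more RNA reads a barcode were tested with limma 3.58.1 in R 4.3.3, with Benjamini-Hochberg adjustment over all pairs of the table and a threshold of 0.05. Vector differences used the same barcode in both vectors. Start positions used barcodes with at least 50 RNA reads, with limma for the mean position and an exact split test for the earth mover distance. edgeR 4.0.16 and DESeq2 1.42.0 on the counts, with DNA as offset, were alternatives, beside a replicate block, other pseudocounts and minimums, RNA reads alone, and leaving out each replicate or, for mutant against Ctrl, each barcode. The count model was not the main test because the ratio of 2 counts per barcode was the measure. Limma was tested on simulated data: of 100 pairs changed by 2 on the log2 scale it called 100, and of 100 changed by 1 it called 44. The simulation used one fixed spread between barcodes and only barcodes with many reads. Several inserts here spread more, with an EpiShort SD of 1.01 for the pos strand Ctrl insert of enhancer 3 and 2.74 for the Stat3 mutant. The neg strand Ctrl insert of enhancer 1 had fewer reads per barcode in EpiShort. The simulated rates therefore do not apply to such inserts. Python 3.11.15, numpy 2.4.6, pandas 2.3.3 and scipy 1.17.1 were used.

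Barcodes are not independent cultures, and RNA reads carry no molecular identifiers, so limits for a count of 0 (3 reads of the total) cover counting error only. The replicate number pairs RNA with DNA by label only: over barcodes, the deviations of RNA and DNA from their means correlated at 0.0365 in EpiShort (1924 barcodes) and -0.0803 in LentiShort (1973 barcodes). The rule for naming was that every NPRL3 enhancer insert is accounted for, with library values for each Ctrl insert and each mutant that passed the threshold with a change of at least 1 on the log2 scale in either vector. The other mutants were given library values too. The inserts were taken by name, but this rule, the lists and the tests were set with earlier results of these data known.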

Additional observations from a re-analysis of the deposited data

Results flagged for a closer look

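Of 53 groups of 4 barcodes tested for 1 barcode far from the rest, 6 had one, where chance gives about 1 in 20. In EpiShort barcode 1 of the Stat3 mutant of enhancer 1 stood at -1.48 on the log2 RNA per DNA scale, far above the others. In LentiShort barcode 3 was the far one in 3 mutants of enhancer 3: the neg strand Gata1 mutant at -6.99, the pos strand CTCF mutant at -2.18 and the pos strand Gata1 mutant at -4.51. For the mean start position in LentiShort, barcode 2 of the pos strand Ctrl insert of enhancer 1 stood apart at 114 bp, and barcode 2 of the neg strand Gata1 mutant of enhancer 3 at 113 bp. The p63 effect on the neg strand of enhancer 3 differed between the vectors by 1.17 on the log2 scale, by limma's test of the difference itself (adjusted p = 0.0499, from 0.0254 to 0.0508 over the settings tried).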

How the results depend on the processing

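Of 80 comparisons of a count of NPRL3 mutants or strands called under another setting with the count reported, 72 stayed within 1.5 times it, 5 gave more and 3 gave fewer. Of 573 such comparisons for single mutants, 521 kept direction and side of the threshold. By RNA reads alone, EpiShort called 1 mutant in place of 4, the strands of both enhancers in EpiShort (2), and 1 strand difference in LentiShort, the Gata1 one. RNA alone called 4 mutants in LentiShort in place of 5: it lost pos strand CTCF and p63 and added Stat3 (-1.44, adjusted p = 0.0133). It also turned the EpiShort effects of Meis1 (0.34), neg strand p63 (-1.04), pos strand CTCF (-0.24) and pos strand p63 (-1.53), the LentiShort effects of Meis1 (-0.13) and neg strand CTCF (-0.058), and the vector differences of enhancer 2 Gata1 (-0.016), Meis1 (-0.48) and pos strand Gata1 (-0.47). With a pseudocount of 5 the vector difference called 0 mutants, and the LentiShort Stat3 effect was 0.12. Without barcode 1 of the Stat3 mutant, its effect was -0.26 in EpiShort and 0.11 in LentiShort, and its vector difference 0.37. With at least 200 RNA reads per barcode 6 mutants of EpiShort could be tested for the mean position, of which 1 was called. Over positions with at least 1 percent of starts, the start profile called 3 mutants in EpiShort.

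Leaving out 1 replicate or 1 barcode gave 3 to 4 mutants called in EpiShort and 5 in LentiShort. For the other results only replicates were left out, which gave 1 to 2 vector differences, 2 to 3 and 4 to 5 shifts of mean position, and 0 to 3 and 2 to 3 start profiles. The vector difference of the neg strand Gata1 mutant was the second one, without replicate 2 (1.20, adjusted p = 0.0366). Effects that turned when a replicate or barcode was left out were Stat3 (-0.31 to 1.88) and Meis1 (-0.37 to 0.070) in EpiShort, and Stat3 (-0.37 to 0.19), Meis1 (-0.32 to 0.40), neg strand CTCF (-0.068 to 0.89) and neg strand Gata1 (-0.92 to 0.20) in LentiShort, none of them called. Shifts of mean position that turned were neg strand p63 in EpiShort (-3.99 to 6.31 bp) and Meis1 (-0.28 to 0.29 bp), pos strand CTCF (-0.89 to 1.19 bp) and pos strand Gata1 (-0.40 to 1.98 bp) in LentiShort. With the replicate number as a block, limma called 3 mutants in EpiShort (24 of 49 pairs) and 5 in LentiShort (27 of 51 pairs), and only the call of the neg strand Gata1 mutant in EpiShort was lost (-1.12, adjusted p = 0.0542). edgeR called 5 mutants in EpiShort, the Stat3 mutant added (3.05, adjusted p = 0.0448), and 5 in LentiShort. DESeq2 called 4 of 8 and 5 of 9. The cause of these changes was not tested. The shallow second EpiShort DNA library and the few RNA reads of enhancer 1 limit the precision.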
